A study of Mus musculus with 23 samples.

Results

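Interferon response genes are the genes that cells switch on when they sense viral nucleic acid or receive an interferon signal. A list of 39 of them, named by gene symbol, was followed on mouse expression arrays, and all 39 were found among the 36161 gene names of the array. The study set embryonic stem cells, muscle precursor cells and mature muscle side by side, and 7 groups of 3 samples are compared here. The stem cells were the lines cGR8 of strain 129Sv, RD1 of strain 129X1/SvJ and E14tg2 of strain 129/Ola. Primary myoblasts of C57BL/6J mice were taken at passage 0 (cultures numbered 26, 30 and 42) and as proliferating cells of passages 8 to 10 (cultures 21, 26 and 28). Myotubes carried the numbers 21, 26 and 28 as well, and had spent 1, 2 or 4 days in differentiation medium on Matrigel, whereas proliferating myoblasts grew on collagen in growth medium. Quadriceps muscle came from 1 C57BL/6J mouse and 2 mice of 129Sv/C57BL/6J background. No group received interferon, a virus or a genetic change according to the labels, all samples with a stated sex were male, and no ages are given in the sources used here. Each stem cell sample is 1 line, and the labels do not say whether the culture numbers stand for animals, so p-values measure only the spread between these samples.

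The pathway has an inducing arm and a responding arm. Cytoplasmic sensors such as the helicases encoded by Ddx58 (RIG-I) and Ifih1 (MDA5) detect foreign RNA and lead to production of type I interferon. Interferon binds its receptor, JAK kinases phosphorylate STAT proteins, and STAT2 joins IRF9 in a complex that binds interferon-stimulated response elements in DNA and turns on antiviral genes. Interferon gamma acts mainly on a different element, the gamma-activated site. The induced genes include more of the sensors and transcription factors themselves, so the system feeds back on itself, and Usp18 is among its brakes. Embryonic stem cells are known for a weak interferon response.

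Sequences of the element are shown first, because the element defines how these genes are commonly grouped. RefSeq promoter windows of build GRCm38.p6, covering 250 bases before to 50 bases after each transcription start, were at hand for 31 of the 39 members, and Dhx58, Zbp1, Oas2, Mx1, Mx2, Usp18, Parp14 and Rtp4 had none. The core of the interferon-stimulated response element was searched as GAAA, any 2 bases and GAAA again, and the gamma-activated site as TTCNNNGAA, each on both strands. A core was present in 17 of the 31 members (54.8%) and in 1079 of all 27025 genes with a window (3.99%). The gamma-activated site was present in 9 of the 31 members (29%), against 9.55% of all genes. A match describes letters and not a bound site. In the lines that follow, capitals mark the core, which is written on the strand that reads GAAA, with 5 bases to each side, and positions count from the transcription start, negative before it.
Ddx58, chr4:40239809-40239828, core at 3 to 12: catagGAAATCGAAActgcc
Stat2, chr10:128270271-128270290, core at -222 to -213: gaaagGAAACTGAAAccagg
Ifit1, chr19:34640799-34640818, core at -85 to -76: agtgaGAAACTGAAActgag
Ifit3, chr19:34583402-34583421, core at -122 to -113: aagtaGAAACTGAAAcagac
Oas1a, chr5:120907525-120907544, core at -14 to -5: aaatgGAAACTGAAAatcta
Rsad2, chr12:26456558-26456577, core at -120 to -111: tttctGAAAATGAAAgttgg
Isg15, chr4:156200870-156200889, core at -66 to -57: aaaccGAAACAGAAAatagc
Igtp, chr11:58199517-58199536, core at -34 to -25: gaactGAAACTGAAAgctgt
Irgm1, chr11:48871430-48871449, core at -24 to -15: aaataGAAACCGAAActgat
Gbp2, chr3:142620599-142620618, core at -59 to -50: acagtGAAAGTGAAActaaa
Ifitm3, chr7:141010728-141010747, core at 3 to 12: ttcagGAAAAGGAAActtct
B2m, chr2:122147543-122147562, core at -139 to -130: aacatGAAACTGAAAatggg

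Of the members shown, Ifit1, Ifit3, Oas1a, Irgm1 and Ifitm3 held 2 matches in the window and Isg15 held 3, of which 1 each is printed. The 250 bases before the start are shown for 4 members that differ in their pattern over the samples, with every core in capitals on either strand. Isg15, Ifit3 and Igtp were higher in day 4 myotubes than in proliferating myoblasts, and Oas1a was lower in myoblasts than in stem cells.
Isg15, chr4:156200819-156201068, minus strand: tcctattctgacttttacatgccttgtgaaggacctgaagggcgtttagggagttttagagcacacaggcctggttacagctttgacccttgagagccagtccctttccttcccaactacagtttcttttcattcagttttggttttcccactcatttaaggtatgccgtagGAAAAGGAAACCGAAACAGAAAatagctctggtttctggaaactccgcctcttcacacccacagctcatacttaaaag
Ifit3, chr19:34583279-34583528, plus strand: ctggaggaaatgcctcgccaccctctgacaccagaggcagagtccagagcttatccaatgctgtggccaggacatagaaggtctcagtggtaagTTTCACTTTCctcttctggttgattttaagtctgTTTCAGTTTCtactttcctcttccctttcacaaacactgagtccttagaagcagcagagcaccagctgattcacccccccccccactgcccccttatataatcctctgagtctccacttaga
Igtp, chr11:58199306-58199555, plus strand: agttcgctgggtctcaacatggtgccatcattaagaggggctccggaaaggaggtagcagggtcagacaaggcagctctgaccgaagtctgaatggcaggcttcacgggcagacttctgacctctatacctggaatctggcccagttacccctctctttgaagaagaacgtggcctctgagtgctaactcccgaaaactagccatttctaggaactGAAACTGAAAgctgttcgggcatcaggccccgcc
Oas1a, chr5:120907526-120907775, minus strand: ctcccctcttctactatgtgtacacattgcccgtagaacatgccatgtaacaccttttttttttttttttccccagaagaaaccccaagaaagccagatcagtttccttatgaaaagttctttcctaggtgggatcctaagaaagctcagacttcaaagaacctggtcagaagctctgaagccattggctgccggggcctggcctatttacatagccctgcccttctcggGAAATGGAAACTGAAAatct

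A level here is the log2 signal of the brightest probe of a gene minus the 75th percentile of its array, so levels are compared between samples and not between genes. The array of proliferating culture 21 had a signal of 87.7 intensity units at that percentile, the others had 208 to 765, and 39.1% to 60.1% of spots were well above background. The weak array of proliferating culture 21 showed the fewest members above background, 20 of 39. Its dim probes have levels nearer to those of bright ones, because the lowest level it could resolve was -1.87, against -2.53 to -4.98 on the others in these groups. Of the 39 members, 16 were above background in all 21 samples and 37 in all 3 samples of some group. The exceptions were Mx1 and Ifi44. Members above background in all 3 samples numbered 28 in stem cells, 30 in passage 0 myoblasts, 19 in proliferating myoblasts, 30, 27 and 34 in myotubes of days 1, 2 and 4, and 32 in quadriceps. A repeat array of line E14tg2, averaged with the first, differed from it by a median of 0.22 log2 units over the 28 members above background on both, and by at most 0.95.

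**Figure D1:**
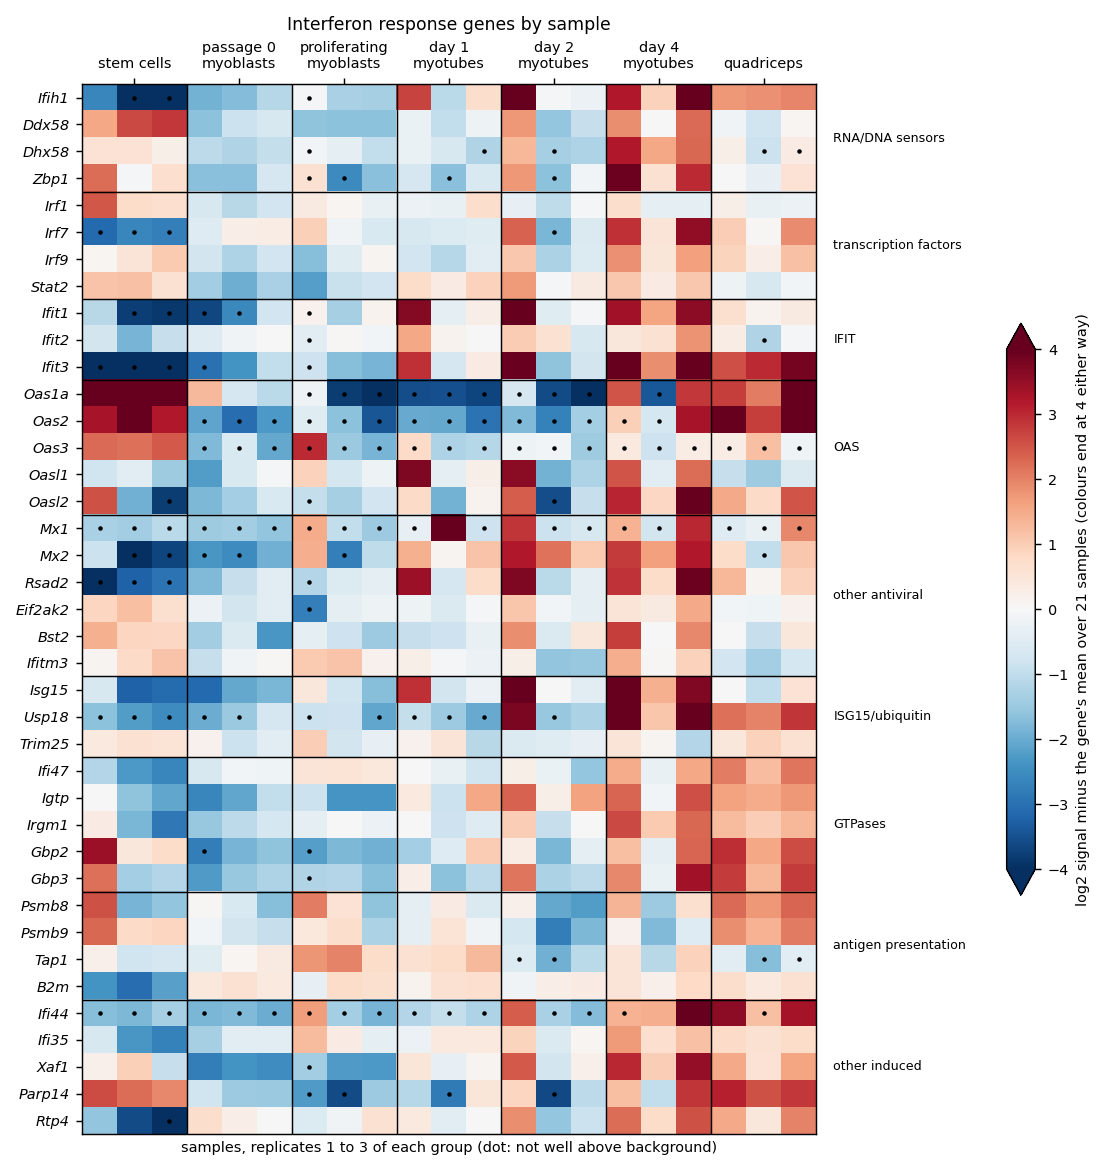
Each row is a member, grouped by role, and each column a sample, with replicates 1 to 3 of the 7 groups from left to right. Colour is the log2 level minus the member's mean over 21 samples, and black dots mark spots not well above background. Most rows are red in day 4 myotubes of cultures 21 and 28, the outer columns of that group, and in day 2 myotubes of culture 21, and the upper 3 OAS rows are red in stem cells.

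Many interferon response genes were higher in day 4 myotubes than in proliferating myoblasts. Over all 39 members, with no filter on dim probes, 17 were called higher and 0 lower, when 6.53% of all genes were called higher. Of all 36161 genes, 23433 were above background in all samples of some group, as were 37 of the 39 members. The share over all genes thus includes more dim genes, as do the other shares given with no filter. The median log2 difference of the 39 was 2.44, against 0 over all genes. With the filter on dim probes used for all tests that follow, 34 members were tested, of which 20 rose and 0 fell, when 15% of all 17441 genes tested were called higher and 10.6% lower. Of the 34, 15 passed that filter only through day 4, where they are high, so this count is no support of its own. Of the 19 above background in all samples of both groups, 7 were called higher, against 13% of all such genes. These were the sensor Ddx58, the GTPases Igtp and Irgm1, the factors Stat2 and Irf9, and Isg15 and Bst2, while 0 of 4 antigen presentation genes were called. The 13 calls that passed only through day 4 were the sensors Dhx58, Ifih1 and Zbp1, the GTPases Gbp2 and Gbp3, Ifit1, Ifit3, Mx2, Rsad2, Eif2ak2, Usp18, Parp14 and Xaf1. Neither of the OAS family members tested, Oasl1 and Oasl2, was called. Testing required signal well above background in all samples of either group, and a member was called at a limma adjusted p under 0.05 (Benjamini-Hochberg, over all genes tested) and a fold of at least 2. In 23 of the 34 members all 3 day 4 samples lay above all 3 myoblast samples, as in 18.1% of all genes. These 34 again include the 15 that passed only through day 4, so this count is no support of its own either. In an alternative chosen after seeing the data, levels below what an array could resolve were raised to its lowest resolved level. Here 20 of 34 members were called higher, against 14.2% of all genes, and 1 lower, Tap1. Irf7 and Oasl2 were gained, and Rsad2 and Gbp3 were lost (adjusted p = 0.055 and 0.074). The same 34 members were tested, so the same limit holds for this count.

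This count rested on the day 4 samples of cultures 21 and 28. Without day 4 culture 21 there were 13 calls, without day 4 culture 28 there were 13, and without day 4 culture 26 there were 23. With array weights, which let limma discount noisy arrays, 8 members were called higher and 1 lower. The 9 members called in each of the 6 fits that left out 1 sample were Igtp, Gbp2, Ifit3, Usp18, Xaf1, Zbp1, Ddx58, Dhx58 and Stat2. Of these, Igtp, Ddx58 and Stat2 were above background in all samples of both groups. With all samples, the others passed the filter only through day 4, where they are high, so their calls add no support of their own. Leaving out the weak array of proliferating culture 21 gave 17 calls. In the paragraphs on single roles that follow, values of proliferating myoblasts and myotubes are given in the order of cultures 21, 26 and 28.

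Among the sensors, Ddx58, which encodes the RNA helicase RIG-I, had levels of -1.67, -1.71 and -1.71 in proliferating myoblasts, of -0.34, -1.06 and -0.27 on day 1, of 1.66, -1.62 and -0.98 on day 2, and of 1.80, -0.07 and 2.21 on day 4. All 3 cultures were above every myoblast sample on day 4, and culture 26 by the least. The difference between day 4 and proliferating myoblasts was 3.01 ± 0.68 (SE, limma adjusted p = 0.0026), which is 8.07-fold. A second Ddx58 probe averaged -5.87 in proliferating myoblasts and -4.55 on day 4, above background on 0 of 3 and 1 of 3 arrays. Dhx58 encodes LGP2, a regulator of the other RNA helicase sensors. Its level was -3.44, -3.73 and -4.33 in proliferating myoblasts, -3.61, -3.98 and -4.53 on day 1, -2.0, -4.66 and -4.58 on day 2, and -0.12, -1.80 and -1.05 on day 4. It was low through day 2 in cultures 26 and 28 and high on day 4 in all 3. The rise from proliferating myoblasts was 2.84 ± 0.57 (adjusted p = 0.0011), and that from day 1 to day 4 was 3.05 ± 0.57 (adjusted p = 0.0025). Ifih1, for MDA5, rose by 3.69 ± 1.09 (adjusted p = 0.016), from -1.83, -3.10 and -3.12 to 1.40, -0.86 and 2.50. It lost its call without day 4 culture 21 or 28, with adjusted p up to 0.074. A second Ifih1 probe averaged -6.03 in proliferating myoblasts and -4.85 on day 4, also above background on 0 of 3 and 1 of 3 arrays. Which probe reports Ddx58 or Ifih1 was not tested. Zbp1 encodes a sensor of Z-form nucleic acid that can trigger cell death, and its day 4 levels of 1.66, -1.66 and 0.70 stood against -1.68, -4.81 and -3.94 in proliferating myoblasts. It rose by 3.71 ± 0.92 (adjusted p = 0.0051), although the day 4 sample of culture 26 was only just above the dim spot of the weak myoblast array.

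Transcription factors of the pathway divided. Stat2, a subunit of the complex that binds the response element, was the only member called already on day 1, 1 of 30 tested, when 10.4% of all genes were called and 6.59% were called higher. Its levels were -1.22, 0.08 and 0.21 in proliferating myoblasts, 1.72, 1.31 and 1.89 on day 1, 2.69, 0.93 and 1.33 on day 2, and 2.04, 1.30 and 2.04 on day 4. Every myotube sample lay above every proliferating myoblast sample. Its rise was 1.95 ± 0.43 by day 1 (adjusted p = 0.0071), 1.96 ± 0.43 by day 2 (adjusted p = 0.0022) and 2.10 ± 0.43 by day 4 (adjusted p = 0.0013). These comparisons share the proliferating samples. With only the 2 groups in the fit, the call was lost on day 1 (adjusted p = 0.098) and on day 2 (adjusted p = 0.063). Igtp also passed on day 1 with the culture number as a block (adjusted p = 0.029), and without day 1 culture 26 (0.044) or proliferating culture 21 (0.048).

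Irf9, the DNA-binding partner of STAT2, stayed near its myoblast level through day 1 and was 2.30, 0.97 and 2.12 on day 4, against -1.22, 0.01 and 0.59 in proliferating myoblasts. It rose by 2.00 ± 0.54 (adjusted p = 0.0095), and lost this call without day 4 culture 21 or proliferating culture 21 (adjusted p up to 0.051). Irf7, the factor that amplifies type I interferon production, was -1.81, -2.91 and -3.39 in proliferating myoblasts, -3.42, -3.31 and -3.24 on day 1, -0.40, -4.61 and -3.34 on day 2, and 0.15, -2.26 and 0.77 on day 4. The day 4 sample of culture 26 lay inside the myoblast range. Its difference from proliferating myoblasts was 2.26 ± 0.85 with an adjusted p of 0.054, and passed without day 4 culture 26 (0.011) or proliferating culture 21 (0.039). From day 1 to day 4 Irf7 rose by 2.87 ± 0.85 (adjusted p = 0.038), but not with the culture number as a block (adjusted p = 0.063). Irf1, a factor of the gamma response, was level, at 2.31, 2.05 and 1.66 in proliferating myoblasts, 1.72, 1.66 and 2.66 on day 1, 1.64, 0.96 and 1.87 on day 2 and 2.68, 1.59 and 1.61 on day 4. It was not called in any comparison among proliferating myoblasts and myotubes.

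IFIT proteins bind viral RNA and block its translation. Ifit3 had the largest difference of any member between day 4 and proliferating myoblasts. Its levels were -3.11, -4.01 and -4.15 in proliferating myoblasts, 0.62, -2.97 and -1.97 on day 1, 1.65, -3.91 and -3.04 on day 2, and 1.88, -0.43 and 2.30 on day 4. Culture 21 was high from day 1 on, and cultures 26 and 28 were high on day 4 alone. The rise was 5.01 ± 1.13 (adjusted p = 0.0026), or 32.2-fold. With levels raised to the lowest resolved one it was 4.60 ± 1.15 (adjusted p = 0.0055). Ifit1 showed the same order of cultures, with 0.82, -3.23 and -2.57 on day 1 and 0.52, -1.26 and 0.73 on day 4, and was called at the margin of the threshold, a call that held in 1 of 6 fits with a sample left out (adjusted p up to 0.15). Ifit2 differed by 1.12 ± 0.52 and was not called (adjusted p = 0.12).

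Isg15 encodes a ubiquitin-like protein that is attached to other proteins, and Usp18 the protease that removes it and also restrains the interferon receptor. Isg15 levels were 2.31, 1.05 and 0.14 in proliferating myoblasts, 4.77, 1.12 and 1.61 on day 1, 7.13, 1.82 and 1.40 on day 2, and 6.32, 3.28 and 5.54 on day 4. On day 2 culture 21 stood more than 5 log2 units above both other cultures, and on day 4 all 3 cultures were above every myoblast sample. The rise by day 4 was 3.88 ± 1.28 (adjusted p = 0.029), and the call was lost without day 4 culture 21 (0.12), day 4 culture 28 (0.076), proliferating culture 26 (0.065) or proliferating culture 28 (0.096). Usp18 was above background in 1 of 3 proliferating samples and in none of day 1, and its day 4 levels were 1.27, -1.93 and 2.27. It rose by 4.82 ± 1.10 from proliferating myoblasts (adjusted p = 0.0027), or by 4.05 ± 1.10 (adjusted p = 0.0099) with levels raised to the lowest resolved one, and was at least 25.6-fold higher on day 4 than on day 1 (adjusted p = 0.0067). A bound of this kind sets the brighter group's mean against the lowest signal that was well above background on each array of the dim group, or the dim probe's own signal where that was higher.

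**Figure D2:**
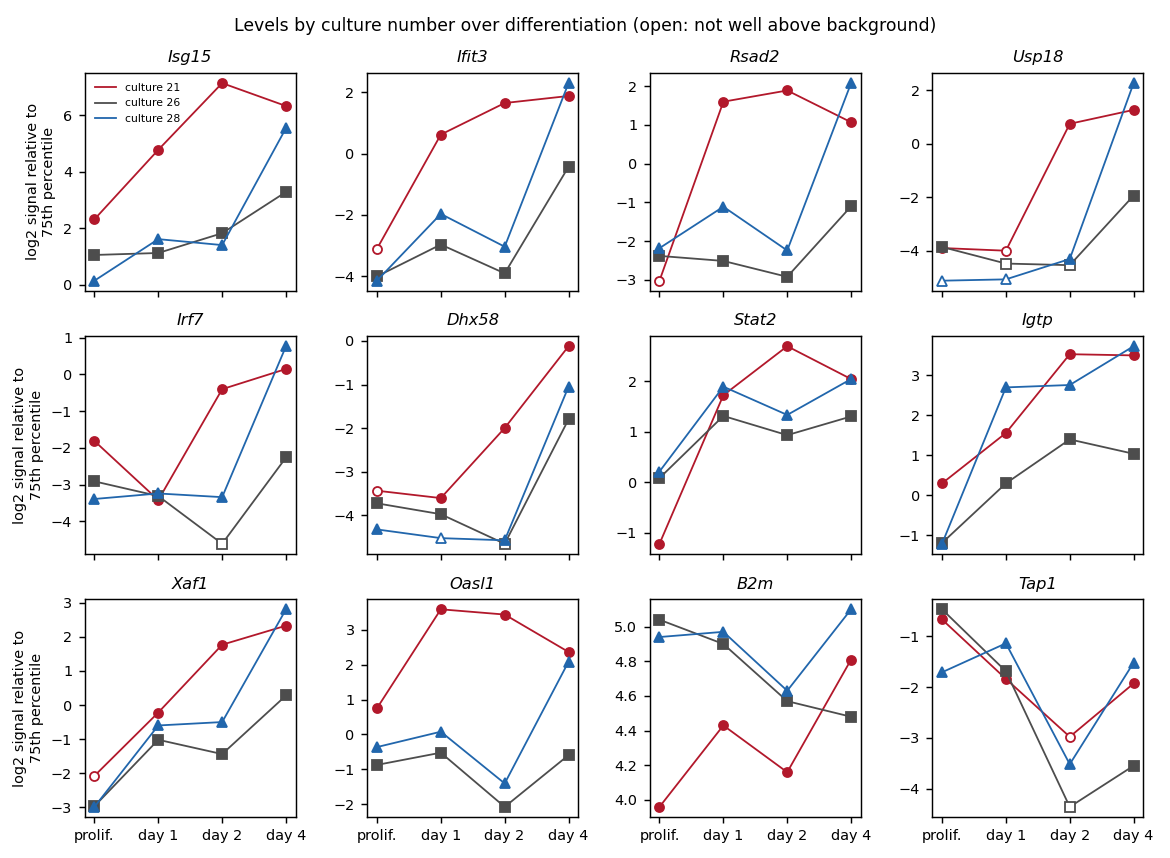
Log2 level of 12 members by culture number (21 circles, 26 squares, 28 triangles) in proliferating myoblasts and on days 1, 2 and 4, with open symbols for spots not well above background. Lines of culture 21 climb by day 1 or 2 for Isg15, Ifit3, Rsad2 and Oasl1, whereas lines of cultures 26 and 28 climb between days 2 and 4, and B2m spans little more than 1 log2 unit.

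The GTPases of the list act on membranes around intracellular pathogens. Igtp, also known as Irgm3, had levels of 0.30, -1.19 and -1.21 in proliferating myoblasts, 1.56, 0.30 and 2.70 on day 1, 3.53, 1.40 and 2.76 on day 2, and 3.50, 1.04 and 3.73 on day 4. From day 2 on all 3 cultures were above all myoblast samples. The rise was 3.26 ± 0.78 by day 2 (adjusted p = 0.0038) and 3.46 ± 0.78 by day 4 (adjusted p = 0.0025). Irgm1, a regulator of the other GTPases of this kind, rose by 2.21 ± 0.62 by day 4 (adjusted p = 0.012), and lost the call without day 4 culture 21 (0.061). The guanylate-binding protein genes Gbp2 and Gbp3 both rose by 3.02 (SE 0.81 and 1.01, adjusted p = 0.0084 and 0.032). With levels raised to the lowest resolved one, Gbp2 rose by 2.32 ± 0.84 (adjusted p = 0.048) and Gbp3 differed by 2.56 ± 1.03 (adjusted p = 0.074). Gbp2 reached -0.59, -2.16 and 0.52 from -3.99, -3.58 and -3.72, and Gbp3 lost its call in 5 of the 6 fits with a sample left out. Ifi47 differed by 0.42 ± 0.51 and was not called (adjusted p = 0.61).

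Of the other antiviral effectors, Rsad2 encodes viperin, an enzyme that makes a chain-terminating nucleotide, and Eif2ak2 the kinase PKR, which halts translation. Rsad2 was -3.02, -2.38 and -2.18 in proliferating myoblasts, 1.60, -2.51 and -1.11 on day 1, 1.89, -2.92 and -2.24 on day 2, and 1.07, -1.10 and 2.08 on day 4. Culture 21 was again the early one. Rsad2 rose by 3.21 ± 1.09 (adjusted p = 0.034), which held in only 1 of the 6 fits with a sample left out (adjusted p up to 0.14). Eif2ak2 rose by 1.92 ± 0.53 (adjusted p = 0.011), or by 1.16 ± 0.36 (adjusted p = 0.021) with levels raised to the lowest resolved one, and lost the call without day 4 culture 28 (0.053). Bst2 encodes tetherin, which holds budding virus at the cell surface, and it rose by 2.44 ± 0.66 (adjusted p = 0.0092), from 2.43, 1.97 and 1.36 to 5.56, 2.80 and 4.71. Its call was lost without day 4 culture 21 (0.066). Mx2, a dynamin-like antiviral GTPase, was -1.19, -5.38 and -3.68 in proliferating myoblasts, 0.55, -0.49 and -1.59 on day 2 and 0.16, -1.02 and 0.55 on day 4. It rose by 2.91 ± 0.93 by day 2 (adjusted p = 0.025), a call lost in 4 of 6 fits with a sample left out, and by 3.32 ± 0.93 by day 4 (adjusted p = 0.012), and lost the day 4 call without proliferating culture 26 (0.074). Mx1 was above background in 3 of 21 samples, at -1.52 on day 1 in culture 26, -2.78 on day 2 in culture 21 and -2.63 on day 4 in culture 28, and was not tested.

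Ifitm3, which blocks virus entry at endosomes, differed from the others. Its levels were 5.15, 5.24 and 4.27 in proliferating myoblasts, 4.33, 4.04 and 3.84 on day 1, 4.31, 2.50 and 2.56 on day 2, and 5.53, 4.14 and 5.01 on day 4. By day 2 it fell by 1.76 ± 0.48 on the log2 scale (adjusted p = 0.0092), and on day 4 it differed from proliferating myoblasts by 0.01 ± 0.48. The day 2 call was lost without day 2 culture 26 (0.053) or 28 (0.052). Day 2 had 4 members called higher and 3 lower of 29 tested, when 25.9% of all genes were called, 15.6% higher and 10.3% lower. Of the 29, 10 passed the filter only through day 2 and 2 only through proliferating myoblasts. Among the calls, Mx2 and Xaf1 passed only through day 2 and Tap1 only through proliferating myoblasts. Each is high in the group it passed through, so these calls add no support of their own to the counts.

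Beside Ifitm3, the members lower on day 2 were 2 of the 4 antigen presentation genes, Tap1 and Psmb9. Tap1, which moves peptides into the endoplasmic reticulum, was -0.67, -0.47 and -1.71 in proliferating myoblasts, -1.84, -1.69 and -1.14 on day 1, -2.98, -4.36 and -3.52 on day 2, and -1.93, -3.55 and -1.52 on day 4. All 3 day 2 samples were below all proliferating samples. The fall by day 2 was -2.67 ± 0.53 (adjusted p = 0.00091), and the day 4 difference of -1.38 ± 0.53 had an adjusted p of 0.058, passing without day 4 culture 28 (0.024) or proliferating culture 28 (0.029) and with slide as a block (0.025). Psmb9, an immunoproteasome subunit, was -0.36, -0.09 and -2.05 in proliferating myoblasts and -1.50, -3.55 and -2.59 on day 2. It fell by 1.71 ± 0.61 (adjusted p = 0.042), a call lost with the culture number as a block (0.080) and in 4 of 6 fits with a sample left out. B2m, the light chain of class I molecules, varied little, at 3.96, 5.04 and 4.94 in proliferating myoblasts, 4.43, 4.90 and 4.97 on day 1, 4.16, 4.57 and 4.63 on day 2 and 4.81, 4.48 and 5.10 on day 4. Psmb8, another such subunit, was called in no comparison.

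Of the remaining induced genes, Xaf1, which encodes a factor that promotes cell death, was among the members called on both day 2 and day 4. Its levels were -2.08, -2.97 and -2.99 in proliferating myoblasts, -0.22, -1.02 and -0.60 on day 1, 1.77, -1.44 and -0.50 on day 2, and 2.33, 0.28 and 2.81 on day 4. All myotube samples were above all myoblast samples. It rose by 2.63 ± 0.71 by day 2 (adjusted p = 0.0092) and by 4.49 ± 0.71 by day 4 (adjusted p = 0.00013), with the day 2 call lost without day 2 culture 21 (0.071). A second Xaf1 probe was above background on 1 of 3 day 4 arrays and on none of the myoblast arrays, with group means of -4.72 and -5.66. In stem cells that probe was above background on all 4 arrays, at a mean of 0.67, against -6.93 in passage 0 myoblasts. The brightest probe averaged -0.62 and -3.24 in these groups and 1.81 on day 4. So the probes disagree on whether stem cells or day 4 were higher, and which of them reports Xaf1 was not tested. Parp14, an ADP-ribosyltransferase, was above background in 1 of 3 proliferating samples. It rose by 3.46 ± 1.01 by day 4 (adjusted p = 0.015), or by 2.50 ± 0.92 (adjusted p = 0.049) with levels raised to the lowest resolved one, a call lost without day 4 culture 28 or proliferating culture 26 (adjusted p up to 0.082). Rtp4 and Ifi35 differed by 1.86 ± 0.79 and 0.78 ± 0.51 and were not called. Ifi35 was 3.18, 2.24 and 1.56 in proliferating myoblasts and 3.62, 2.60 and 3.09 on day 4, so the groups overlapped. Ifi44 was above background on day 4 in cultures 26 and 28, at -3.72 and -0.17, on day 2 in culture 21 at -2.76, and in 2 quadriceps samples.

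Trim25, the ubiquitin ligase that activates RIG-I, illustrates the choice of probe. Its brightest probe, which carries the run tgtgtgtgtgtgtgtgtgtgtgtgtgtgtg, stood at 5.31, 3.61 and 4.01 in proliferating myoblasts and 4.86, 4.43 and 3.16 on day 4. Its accession was not matched to RefSeq, and whether it reports Trim25 was not tested. The other probe averaged 5.75 in stem cells, 3.72 in passage 0 myoblasts, 2.76 in proliferating myoblasts, 3.75 on day 4 and 3.45 in quadriceps. With the mean of both probes Trim25 was called lower in passage 0 myoblasts than in stem cells (adjusted p = 0.012). In all, 30 members had 1 probe and 9 had 2, and close relatives such as Oas1a and Oas1g may share signal, which was not tested.

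**Figure D3:**
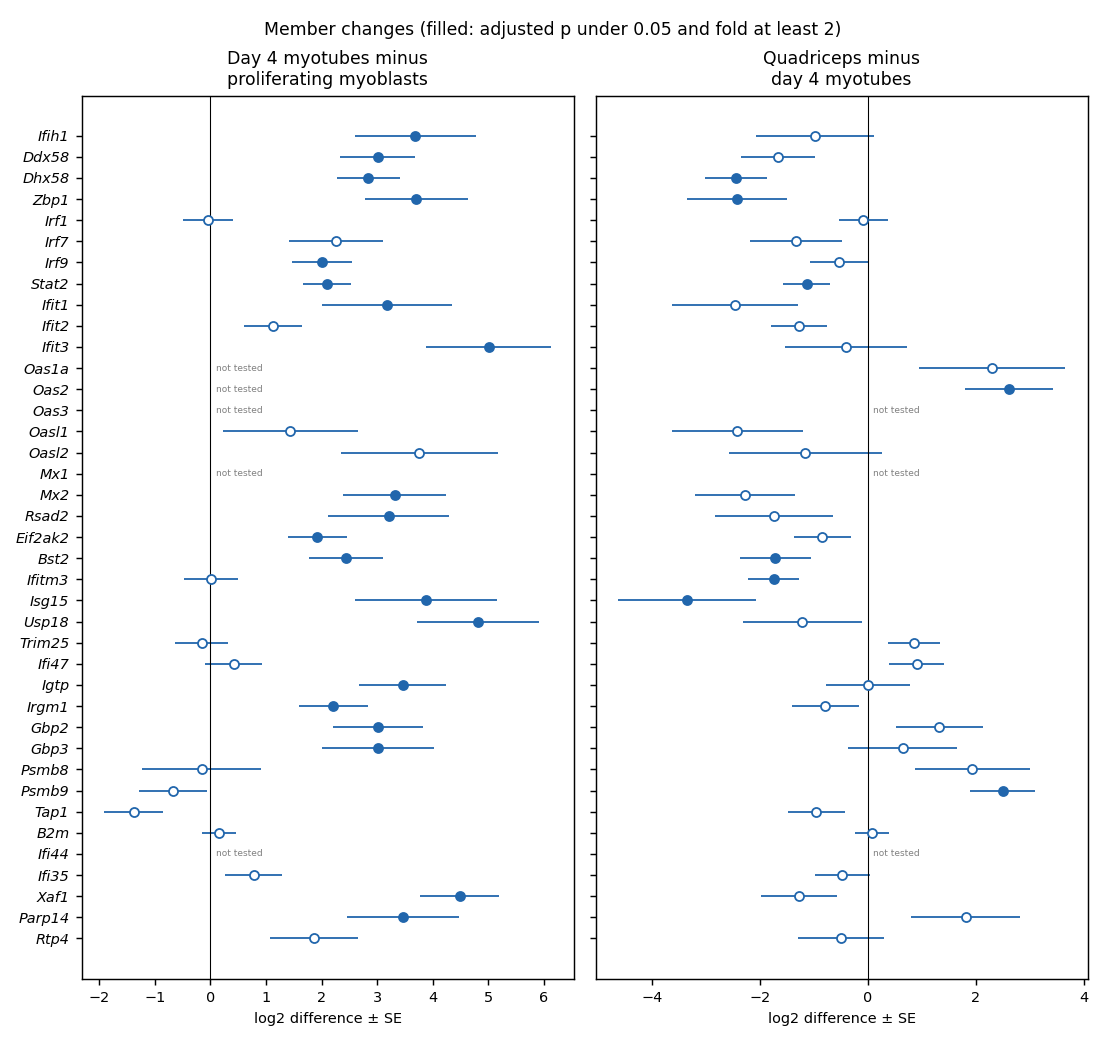
Log2 difference with its standard error for each tested member, in day 4 myotubes against proliferating myoblasts (left) and in quadriceps against day 4 myotubes (right), with filled points for calls. On the left 20 points are filled, all to the right of 0, and on the right 2 are filled above 0 and 6 below.

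Between day 1 and day 4, 8 of 34 members rose and 0 fell, when 4.54% of all genes were called higher and 9.23% in either direction. Of the 34, 4 passed the filter only through day 4, and 3 of these were called, Usp18, Dhx58 and Zbp1. They are high there, so these calls add no support of their own to the count. With no filter 6 of all 39 members were called higher, against 1.71% of all genes. The 8 were the sensors Dhx58 and Zbp1, the factors Irf7 and Irf9, and Usp18, Irgm1, Xaf1 and Bst2. Zbp1 rose by 3.49 ± 0.92 (adjusted p = 0.021). With the culture number as a block there were 6 calls. Here numbers were taken to pair the samples, because all 3 correlations of same-numbered samples were above 0.1. Same-numbered samples of days 1 and 4 also lay on the same slide, so culture and slide cannot be told apart. Without single samples the count was 3 (day 4 culture 21 or 28, or day 1 culture 21), 2 (day 1 culture 26), 5 (day 1 culture 28) or 11 (day 4 culture 26). Usp18 and Dhx58, which with all samples passed the filter only through day 4, were called in all 6 of these fits.

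The cultures differed in when the genes were high. On day 2, 26 of the 35 members above background in culture 21 (74.3%) were at least 2-fold above both other cultures, against 3.83% of all genes. In culture 26 of day 2 there were 0 such members, against 1.53% of all genes, and in culture 28 also 0, against 0.622%. On day 1 the share in culture 21 was 8 of 33 (24.2%), against 1.28% of all genes, and the 8 were Ifih1, Ifit1, Ifit2, Ifit3, Oasl1, Rsad2, Isg15 and Gbp3. On day 4 culture 28 had 10 of 38 (26.3%, against 3.93%), and culture 26 was the lowest of the 3 in 35 of 38 members, against 24.1% of all genes. In proliferating culture 21, on the weak array, the share was 35% and that of all genes 29.9%.

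Taken by culture number, the step from day 1 to day 2 raised 23 of 36 members at least 2-fold in culture 21, with a median change of 1.44, and lowered 10 of 32 in culture 26 and 10 of 34 in culture 28. Among all genes, 11.1% were raised at this step in culture 21, and 11.2% and 9.39% were lowered in cultures 26 and 28. The step from day 2 to day 4 raised 10 of 37 members in culture 21, 21 of 35 in culture 26 and 33 of 38 in culture 28, with medians of 0.56, 1.47 and 3.14. Among all genes, 14.7%, 8.3% and 10.2% were raised between these days. These are values of single pairs of samples with no test, and whether the timing belongs to the culture or to its handling cannot be told apart. Oasl1, which encodes an OAS-like protein without synthetase activity, shows the pattern, with 0.75, -0.87 and -0.36 in proliferating myoblasts, 3.58, -0.52 and 0.08 on day 1, 3.43, -2.07 and -1.40 on day 2, and 2.36, -0.59 and 2.08 on day 4. With 3 such unlike values a day, its day 4 difference of 1.44 ± 1.21 was not called.

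Several members were higher in stem cells than in passage 0 myoblasts. Of 33 members tested, 14 were lower in passage 0 myoblasts than in stem cells and 4 were higher, with a median of -1.0, when 20.1% of all genes were called lower, 17.8% higher and 37.9% in all, around a median of -0.26. With no filter, 11 of all 39 members were lower (12.9% of all genes) and 4 higher (11.1%). The genes lower in myoblasts included 3 of 5 OAS family members, the sensors Ddx58 and Dhx58, and the factors Stat2, Irf1 and Irf9. Those higher were B2m, Rtp4, Irf7 and Ifi47. Of the calls, Oas2, Oas3 and Gbp2 passed the filter only through stem cells, and Rtp4 and Irf7 only through passage 0 myoblasts. Each is high in the group it passed through, so these calls add no support of their own to the counts. In the same comparison 7 of 15 leukocyte markers tested were higher in myoblasts and 1 lower, and 5 of 8 fibroblast markers were higher and 0 lower, and their part in the members' levels was not tested. Cell type and strain changed together here, stem cells being of 129Sv, 129X1/SvJ and 129/Ola and myoblasts of C57BL/6J, so the share of each in a difference cannot be told apart. In these bulk samples, fewer cells expressing a gene and less RNA per cell cannot be told apart either.

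OAS enzymes make the short oligoadenylates that activate RNase L. Oas1a was 2.93, 3.85 and 2.46 in stem cells (lines cGR8, RD1 and E14tg2) and -1.27, -3.23 and -3.63 in passage 0 myoblasts. It was not above background in any proliferating, day 1 or day 2 sample, and returned to -0.03 and 0.26 on day 4 in cultures 21 and 28. It fell by 5.79 ± 1.35 from stem cells to passage 0 myoblasts (adjusted p = 0.0019). Oas2 was -0.14, 0.88 and -0.24 in stem cells and not above background in any myoblast sample of either passage, which put it at least 32.4-fold lower in passage 0 myoblasts (adjusted p = 9e-06). Oas3 was -2.58, -2.63 and -2.39 in stem cells and above background in no sample of any other group, at least 4.98-fold lower in passage 0 myoblasts (adjusted p = 0.0025). Oasl1 and Oasl2 were not called.

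**Figure D4:**
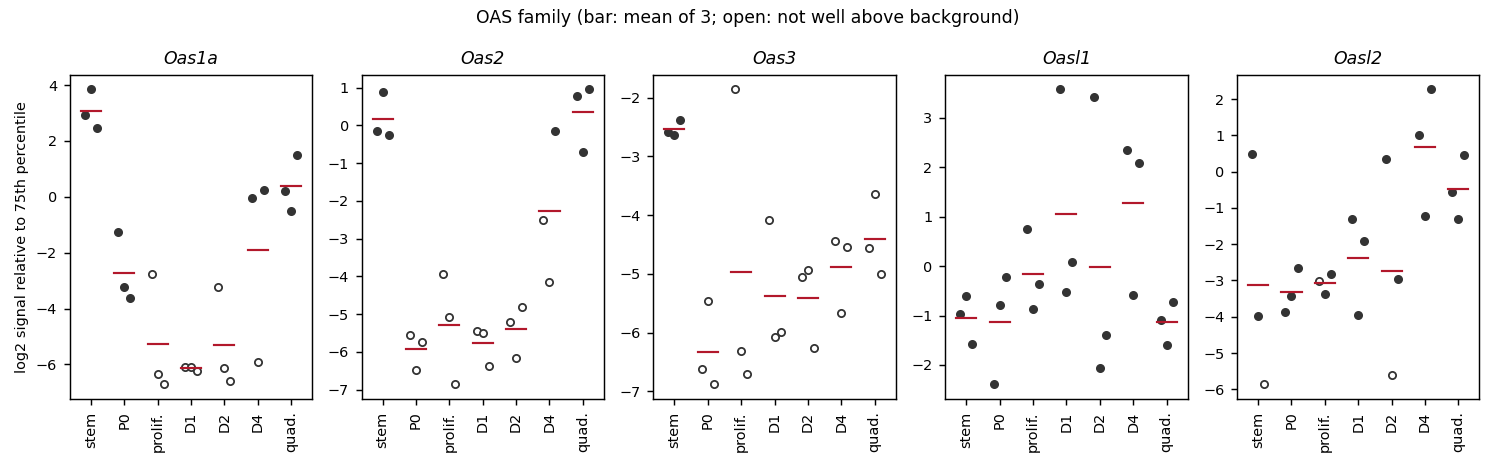
Log2 level of the 5 OAS family members in each sample of the 7 groups, from stem cells to quadriceps (P0, passage 0 myoblasts, and D1, D2 and D4, days of differentiation). Red bars are means of 3 and open circles are spots not well above background. Oas1a, Oas2 and Oas3 are filled in all stem cell samples, Oas3 in no other group.

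Among the other members lower in myoblasts, Stat2 was 2.10, 2.14 and 1.59 in stem cells and -0.43, -0.97 and -0.31 in passage 0 myoblasts, a fall of -2.52 ± 0.43 (adjusted p = 0.00013). Ddx58 was 1.48, 2.57 and 2.75 against -1.69, -0.92 and -0.70 (-3.37 ± 0.68, adjusted p = 0.00056). Gbp2 was 1.63, -1.34 and -1.06 against -4.57, -3.65 and -3.42 (-3.62 ± 0.81, adjusted p = 0.0013). In each of these genes the groups did not overlap. Parp14 fell by 3.50 ± 1.01 (adjusted p = 0.0092), from 0.96, 0.58 and 0.28 to -2.45, -3.11 and -3.14. Irf1 was 4.45, 2.71 and 2.63 against 1.33, 0.84 and 1.2, a fall of -2.14 ± 0.45 (adjusted p = 0.00080). Bst2, Xaf1 (by its brightest probe), Psmb9, Irf9, Dhx58 and Eif2ak2 fell by 1.38 to 2.63. The calls of Dhx58 and Eif2ak2 were lost whichever sample was left out (adjusted p up to 0.13), those of Irf9 and Psmb9 in 5 and 3 of 6 such fits.

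B2m was the most sharply separated of the genes higher in myoblasts, with 1.91, 1.23 and 2.12 in stem cells and 4.70, 4.91 and 4.69 in passage 0 myoblasts. It rose by 3.01 ± 0.31, or 8.07-fold (adjusted p = 4.7e-07). Rtp4, which encodes a chaperone of cell surface receptors, was -1.48, -3.46 and -4.46 against 0.80, 0.37 and 0.12 and rose by 3.56 ± 0.79 (adjusted p = 0.0013). Irf7 was not above background in any stem cell line and stood at -3.28, -2.49 and -2.48 in passage 0 myoblasts, at least 3.68-fold higher (adjusted p = 0.012). Its call was lost with the authors' values (0.17), with another background correction (0.20) and with levels raised to the lowest resolved one (0.073). Ifi47 rose by 1.71 ± 0.51 (adjusted p = 0.011), from -2.73, -3.86 and -4.18 to -2.22, -1.67 and -1.74, and lost its call without line E14tg2 (0.061). Ifit3 was dim in all stem cell samples and in passage 0 culture 26, at -6.69, -6.84 and -6.76 against -5.27, -4.69 and -3.28, and was not tested.

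Stem cell lines were not alike. In cGR8, 13 of 33 members above background (39.4%) were at least 2-fold above both other lines, against 4.21% of all genes. They included Isg15 (1.2 in cGR8, -1.38 in RD1 and -1.23 in E14tg2), Oasl2 (0.49, -3.99 and -5.86), Psmb8 (1.40, -3.03 and -2.74) and Igtp (1.18, -0.45 and -0.92). In RD1 the only such member was Oas2 (1.19% of all genes), and in E14tg2 there were 0 of 28 (0.832% of all genes). Without cGR8, 6 members were called higher in passage 0 myoblasts and Psmb9 was no longer called lower (adjusted p = 0.11).

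Between passage 0 and proliferating myoblasts no member was called, 0 of 30 tested, when 1.55% of all genes were, 0.609% higher and 0.938% lower. At an unadjusted p under 0.05 there were 3, when 20.7% of all genes were under it, and 0 were called with array weights or the authors' values. The median difference was 0.35, against 0.14 over all genes, and 8 members were higher in all 3 proliferating samples than in all passage 0 samples, as were 10.4% of all genes. Without proliferating culture 28, Tap1 was called higher (adjusted p = 0.047). Leukocyte markers moved between these groups, with 15 or 16 of 17 above background in passage 0 samples and 7 to 10 in proliferating samples, and 5 of 15 tested were called lower, as were 6 of 8 fibroblast markers. Their part in the members' levels was not tested.

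In quadriceps muscle against day 4 myotubes, calls among the members were no more frequent than among all genes. Of 36 members tested 6 were lower and 2 higher in muscle, with a median of -0.90, when 16.7% of all genes were called lower, 15.1% higher and 31.8% in all, around a median of -0.06. Isg15, Dhx58, Zbp1, Ifitm3, Bst2 and Stat2 were lower, and Oas2 and Psmb9 higher. Of these, Dhx58 passed the filter only through day 4 and Oas2 only through quadriceps. Each is high in the group it passed through, so these calls add no support of their own to the counts. Isg15 was 6.32, 3.28 and 5.54 on day 4 and 1.82, 0.85 and 2.43 in quadriceps, so the groups did not overlap. It fell by 3.35 ± 1.28 (adjusted p = 0.049), a call kept only without day 4 culture 26 among the fits with a sample left out (adjusted p up to 0.18). Dhx58 was -0.12, -1.80 and -1.05 against -3.11, -4.18 and -3.02 and fell by 2.45 ± 0.57 (adjusted p = 0.0026). Zbp1 fell by 2.43 ± 0.92 (adjusted p = 0.047), with -2.30, -2.60 and -1.70 in quadriceps, and was called in 1 of the 6 fits with a sample left out. Ifitm3 fell by 1.75 ± 0.48 (adjusted p = 0.0075) to 3.31, 2.73 and 3.38. Bst2 and Stat2 fell by 1.72 ± 0.66 and 1.14 ± 0.43 (both adjusted p = 0.049), calls that held in 2 and 1 of 6 such fits.

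In muscle, Oas2 was 0.77, -0.69 and 0.96 and on day 4 -2.51, -4.14 and -0.15, of which only the last was above background. It rose by 2.61 ± 0.82 (adjusted p = 0.018), with overlapping groups, and lost the call without quadriceps replicate 1 (0.062) or 3 (0.072) or day 4 culture 21 (0.057) or 26 (0.12). Psmb9 was 1.06, 0.60 and 1.30 against -0.62, -2.56 and -1.31 on day 4 and rose by 2.49 ± 0.61 (adjusted p = 0.0036). Psmb9, Dhx58 and Ifitm3 were called in all 6 fits with a sample left out, of which Dhx58 passed the filter only through day 4. Igtp was 2.76, 2.63 and 2.89 in quadriceps and B2m 4.99, 4.69 and 4.90, and for both genes muscle overlapped with day 4. Without single samples the count of lower members ranged from 2 (quadriceps replicate 2, day 4 culture 21 or 28) to 9, and was 3 without quadriceps replicate 1 or 3. With no filter on dim probes 2 of 39 members were lower (8.82% of all genes) and 2 higher (7.33%). The lower count was 3 with array weights, which also raised the higher count to 7.

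Muscle holds other cell types, and their markers differed from the cultures. All 11 endothelial markers, 9 or 10 of 10 fibroblast markers and 13 to 15 of 17 leukocyte markers were above background in quadriceps samples, against 4 to 7, 4 or 5 and 3 to 7 in day 4 samples. The summed linear level of the leukocyte markers, in multiples of each array's 75th percentile, was 53.5 to 83.5 in quadriceps and 49.3 to 74.1 on day 4, so these ranges overlapped, and Itgam, in that list, was 6.01, 5.29 and 5.52 on day 4 and 5.76, 5.27 and 4.60 in quadriceps. Of 13 leukocyte markers tested, 9 were higher in quadriceps and 0 lower, with a median difference of 3.56. The summed level of the fibroblast markers was 322 to 843 against 10.2 to 16.5, and that of the endothelial markers 84 to 127 against 10.1 to 43.4. In day 4 myotubes, Ptprc, Cd52, Cd53, Tyrobp, Cd68, Lyz2, C1qa and C1qc of the leukocyte list were above background in no sample. Ptprc, the pan-leukocyte gene, stood at -1.16 on day 2 in culture 21, where most members were high, and at -4.72 and -4.87 in cultures 26 and 28, whereas Tyrobp and Lyz2 were -5.27 and -5.26 there in culture 21 and 8 of the 17 leukocyte markers were above background in no day 2 sample. The part of these markers in the members' levels was not tested. Of other markers, 7 of 7 for stem cells were above background in all stem cell samples, and 2 to 4 in all samples of other groups. The same 6 of 7 myoblast markers were above background in both myoblast groups, all myotube groups and quadriceps. Adult muscle markers numbered 7 of 7 in quadriceps and in myotubes and 6 of 7 in both myoblast groups. These counts therefore do not tell myoblasts, myotubes and muscle apart.

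Promoter class was set against the calls as a description. Of members tested in day 4 against proliferating myoblasts, 13 of 15 with a response element core in the window were called higher, as were 2 of 13 with a window and no core. Of these, Ifih1, Ifit1, Ifit3, Rsad2, Eif2ak2, Gbp2 and Gbp3 with a core and Xaf1 without passed the filter only through day 4. They are high there, so these counts are no support of their own. The called members Dhx58, Zbp1, Mx2, Usp18 and Parp14 had no window and are in neither class. Among all genes tested with a window the shares called higher were 19.1% with a core and 17.7% without. For day 4 against day 1 the counts were 2 of 15 and 3 of 13, and the shares of all genes 6.13% and 5.46%. Between stem cells and passage 0 myoblasts, 7 of 15 members with a core and 4 of 13 without were lower in myoblasts, against 19.9% and 20.8% of all genes. In that comparison 1 of 15 and 2 of 13 were higher, against 21.3% and 21.8%. In quadriceps against day 4, 4 of 16 with a core and 0 of 13 without were lower, against 17.5% and 19.7%, and 0 of 16 and 1 of 13 were higher, against 19.7% and 16.1%. The windows shown for Isg15, Ifit3 and Igtp belong to the class with a core.

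Of 15 interferon genes on the array, 3 were above background in all 21 samples, 4 in 15 to 18, 3 in 1 to 4, and 5 in none. No more than 7 could be tested in a comparison and 0 were called in any of the 7. Ifnb1, for interferon beta, was above background in 1 of 21 samples, day 4 myotubes of culture 28, at -1.95, and Ifng in 0. In the receptor list of 6 genes, Ifngr2, a chain of the interferon gamma receptor, rose in day 4 against proliferating myoblasts, from 1.93, 2.66 and 1.59 to 4.21, 3.72 and 3.25 (1.66, adjusted p = 0.0013). Ifnar1 and Ifnar2, the type I receptor, were above background in all 21 samples, and Ifnar2 fell by 1.34 in quadriceps against day 4 (adjusted p = 0.0015). Il28ra, a chain of the lambda receptor, was 0.07, 0.15 and -0.22 in stem cells and fell by at least 4.85 on the log2 scale in passage 0 myoblasts (adjusted p = 1.9e-07).

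Of the 5 signalling genes, Stat3 rose by 1.89, 1.84 and 2.19 by days 1, 2 and 4 (adjusted p = 0.0037, 0.0014 and 0.00032). Signalling genes called higher on these days were 1 of 4, 2 of 5 and 1 of 4 tested, and 1 was called lower on each day. Among all genes tested, 6.59%, 15.6% and 15% were called higher and 3.84%, 10.3% and 10.6% lower. Jak2 was 2.74 higher in passage 0 myoblasts than in stem cells (adjusted p = 7.6e-06). Among the inhibitors, Socs1 fell by 1.91 by day 4, from 0.50, 1.43 and 0.44 to -0.78, -1.68 and -0.90 (adjusted p = 0.010). In a list of 54 further targets, 51 were on the array. Of these, 34 were tested in day 4 against proliferating myoblasts, with 8 called higher and 2 lower, when 15% and 10.6% of all genes were. The largest call was Irgm2, a relative of Irgm1, at -1.75, -2.14 and -2.67 in proliferating myoblasts and 2.77, 0.60 and 2.22 on day 4 (4.05, adjusted p = 0.0017). Cxcl10, a chemokine that attracts T cells, was 1.51, -0.89 and 2.13 on day 4 and lower by at least 4.36 on the log2 scale in quadriceps (adjusted p = 0.00055). In the stem cell comparison 12 of 41 further targets were lower in myoblasts and 7 higher, when 20.1% and 17.8% of all genes were. Ifitm1 showed the largest fall, from 6.70, 6.06 and 6.18 to -2.07, -2.58 and -2.99 (-8.86, adjusted p = 2.5e-10).

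A single muscle sample of strain NOD/ShiLtj stood outside the comparisons, and 36 of the 39 members were above background in it. Against the 3 quadriceps samples, 24 of the 32 members above background in all of them were lower in the NOD sample than in every quadriceps sample, when 21.7% of all genes were. Ifit3 was -1.53 in the NOD sample and 0.30, 0.68 and 1.53 in quadriceps. Ifih1 was -1.43 against -0.07, 0.02 and 0.16, and Igtp 1.34 against 2.76, 2.63 and 2.89, and these 3 were at least 2-fold below all quadriceps samples (1.6% of all genes were). Eif2ak2, at -0.30 against -1.52, -1.58 and -1.23, was the only member above all 3, when 23.8% of all genes were, and 0 members were at least 2-fold above all 3 (1.18% of all genes). With 1 sample there is no test.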

How the data were processed

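Total RNA of 23 samples was hybridised to 1-colour Agilent 8x60K mouse arrays, and the processed signal intensity, raw mean and background intensities and 0 or 1 flags (a score of detection per spot) were used as deposited. Per the file headers, Feature Extraction version 10.7.3.1 made the processed intensity. The authors also deposited log2 values, used only as an alternative. All their columns have a median of 6.72, and the method behind them is not given in the sources used here. Of 62976 spots per array 59305 were not controls, with 55681 probes. The log2 of the processed signal minus each array's 75th percentile was taken, spots of a probe were averaged, and the brightest probe stood for a gene. limma version 3.58.1 (R 4.3.3) was fitted with a mean for each of 7 groups to 21 samples, with 14 residual degrees of freedom and 23433 genes. Genes named in full were, per role, the member with the highest mean level and, per comparison, the 4 called members with the largest change in each direction, and other members by their calls. Of the other pathway genes 1 called gene per list and comparison was eligible for naming, and further ones, such as Ifnb1, Ifng and Ifnar1, were chosen after their values were seen. The members and lists were chosen with earlier results of these data known. The single NOD/ShiLtj muscle sample was left out of the fits. Same-numbered samples, after removal of group means, correlated at -0.047 to 0.626 over genes, and all 3 numbers were above 0.1 for just 2 pairs of groups, day 2 with proliferating myoblasts and day 4 with day 1. There the titles' culture numbers were taken to pair the samples. Samples of different numbers were not correlated for comparison, and same-numbered samples of days 1 and 4 also shared a slide. Probe accessions matched RefSeq for 36 of the 39 members' probes, with the same symbol in 36. On simulated data for day 4 against proliferating myoblasts (23372 genes), 31% of 100 genes shifted by 1.5 log2 units and 74% of 100 shifted by 3 were called, with 5 false calls. The number of arrays limits the precision. Alternatives covered background correction, normalization, filters, probes, slides, blocks, weights, samples in the fit and leaving out each sample. Raising levels below an array's lowest well-above-background signal to that signal was added after seeing the data.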

Additional observations from a re-analysis of the deposited data

How the results depend on the processing

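Over the single genes named, 4215 of 4558 values under an alternative kept their direction and side of the threshold, 264 lost a call, 79 gained one and 0 reversed. Counts of called members moved by over 1.5 times as follows. In passage 0 myoblasts against stem cells, higher members went from 4 to 2 with the authors' values, 2 with detection required in both groups and 8 with array weights, and lower members from 14 to 9 with detection in both groups. On day 1 the count of 1 became 2 with quantile normalization, 2 with the culture number as a replicate block, 0 with only the 2 groups fitted and 3 with array weights. On day 2 the 4 higher members became 2 with detection in both groups and 1 with 2 groups fitted, where the 3 lower became 1. On day 4 the 20 higher members became 7 with detection in both groups and 8 with array weights, and 1 lower member appeared with slide as a block, with array weights and with levels raised to the lowest resolved level of their array, an alternative chosen after seeing the data. From day 1 to day 4 the 8 became 5 with detection in both groups, 4 with 2 groups fitted and 5 with array weights, which added 1 lower. In quadriceps the 2 higher became 1 with detection in both groups, 1 with 2 groups fitted and 7 with array weights, and the 6 lower became 2 without a filter, 1 with detection in both groups and 3 with array weights. The cause of these shifts was not tested, except that requiring detection in both groups leaves fewer genes to test. Leaving out single samples gave ranges of 3 to 6 higher and 10 to 12 lower for passage 0 myoblasts, 0 to 1 higher for proliferating myoblasts, 1 to 2 on day 1, 2 to 5 higher and 1 to 3 lower on day 2, 13 to 23 higher and 0 to 1 lower on day 4, 2 to 11 from day 1 to day 4, and 1 to 2 higher and 2 to 9 lower in quadriceps. Where numbers were taken to pair the samples, the replicate block gave 4 higher and 2 lower on day 2 and 6 from day 1 to day 4. Elsewhere samples share only a number, and the block gave 20 on day 4, 5 higher and 14 lower for passage 0 myoblasts, 0 for proliferating myoblasts, and 2 higher and 7 lower in quadriceps. Scaling moved the median of all genes in passage 0 myoblasts against stem cells from -0.26 to -0.08 (quantile) or -0.06 (authors' values), and in proliferating against passage 0 myoblasts from 0.14 to -0.05 or -0.04. In the latter, 39.4% of all called genes were higher, against 55% with normexp, 24% with quantile normalization and 27.7% with the authors' values. Dim signal limits members near background, most of all on the array of proliferating culture 21.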
